A study of Mus musculus with 6 samples.

Results

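LILRB4 and the CD300 molecules are surface receptors best known from myeloid cells, and this account follows 5 genes of that kind (Lilrb4a, Lilr4b, Cd300lf, Cd300a and Pirb) in stimulated regulatory T cells of libraries labelled as a knockout of Bach2, which encodes a transcriptional repressor, or as wild type. The genes were chosen by name, and because Lilrb4a and Cd300lf were already known to be among the largest rises in these data, so their difference between the groups is a description, with no p-value, and supports nothing. Of the 5, 4 have values of their own among the 49585 genes of the table, and 3 of these passed the filter on low values that 13766 genes passed. The libraries came from spleens of C57BL/6 mice aged 7 weeks. There were 3 libraries labelled Bach2-cKO, by that name a conditional knockout of Bach2, and 3 labelled WT. Sorting took B220-negative, CD4-positive, YFP-positive cells (the design text adds CD25), and both groups were stimulated for 24 h on plate-bound antibodies to CD3 and CD28 before poly(A) RNA was taken. The labels do not name the Cre line, the floxed allele, the gene that drives YFP or the alleles that the WT mice carry, and they do not say whether libraries came from separate mice, and the spread behind the p-values may therefore be technical. Values are FPKM, read counts scaled to gene length and library size.

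Receptors of this class carry immunoglobulin domains outside the cell and, in the inhibitory members, immunoreceptor tyrosine-based inhibitory motifs (ITIMs) in the cytoplasmic tail. Once a SRC family kinase has phosphorylated the motif's tyrosine, it recruits the phosphatases SHP-1, SHP-2 or SHIP-1, which damp nearby activating receptors. Activating relatives lack the motif and pair with adaptors such as DAP12. Lilrb4a encodes the inhibitory receptor gp49B and Lilr4b its close relative gp49A, Pirb the inhibitory paired immunoglobulin-like receptor that binds MHC class I, Cd300lf the lipid-binding receptor CLM-1, and Cd300a the aminophospholipid-binding receptor CLM-8. In mice, gp49B is found on mast cells, myeloid cells and some activated lymphocytes, and PIR-B on myeloid cells and B cells.

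The ITIM codons are shown because they separate the inhibitory members from Lilr4b. In the longest complete GENCODE M21 coding sequence of each gene, tyrosine codons were sought downstream of the most hydrophobic run of 19 codons (the end that holds the signal peptide left out), with a codon for S, I, V or L at position -2 and one for I, V or L at position 3 counted from the tyrosine. Each sequence is the 6 codons of such a match on the coding strand, 5′ to 3′, with the tyrosine codon in capitals.
Lilrb4a, codon 300: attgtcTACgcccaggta
Lilrb4a, codon 322: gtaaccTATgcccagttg
Cd300lf, codon 241: ctctgtTATgcagacctg
Cd300lf, codon 289: gtttcaTATgccgctctg
Cd300a, codon 262: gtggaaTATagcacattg
Cd300a, codon 274: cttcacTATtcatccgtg
Pirb, codon 713: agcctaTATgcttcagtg
Pirb, codon 794: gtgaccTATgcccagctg
Pirb, codon 824: agtgtaTATgctactctg
Lilr4b had 0 such matches in a tail of 43 codons, against 2 in the 75-codon tail of Lilrb4a. Over the 910 coding bases that align, the pair was 96.0% identical, and 17.7% of the 50-base words of the Lilrb4a coding sequence also occur in that of Lilr4b (4.51% of its 100-base words).

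That likeness, and the way the locus is modelled, limits what the Lilrb4a value measures. The deposited row named Lilrb4a runs on chromosome 10 from 51480679 to 51496613 (GRCm38), a span that holds the GENCODE M21 model of Lilrb4a, from 51490956 to 51496611, and all but the first bases of that of Lilr4b, from 51480632 to 51486703, all on the plus strand. Its identifier, ENSMUSG00000062593, belongs in GENCODE M21 to Gm49339. The 9 exons of the Gm49339 transcript with the longest coding sequence are 1 exon within the Lilr4b span and 8 at Lilrb4a, with 10443 bases between the first and the second. Of the 1990 exonic bases of Gm49339, 92.8% (1846) lie in Lilrb4a exons and 122 in Lilr4b exons, and its longest coding sequence holds the same ITIM codons as that of Lilrb4a. Which exons the authors counted is not stated in the labels or the file. The steps of the FPKM values point to a counted length of 1341 bases. Values of the row are therefore given as Lilrb4a, with reads of Lilr4b not separable from it, and Lilr4b has no values of its own here.

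**Figure D1:**
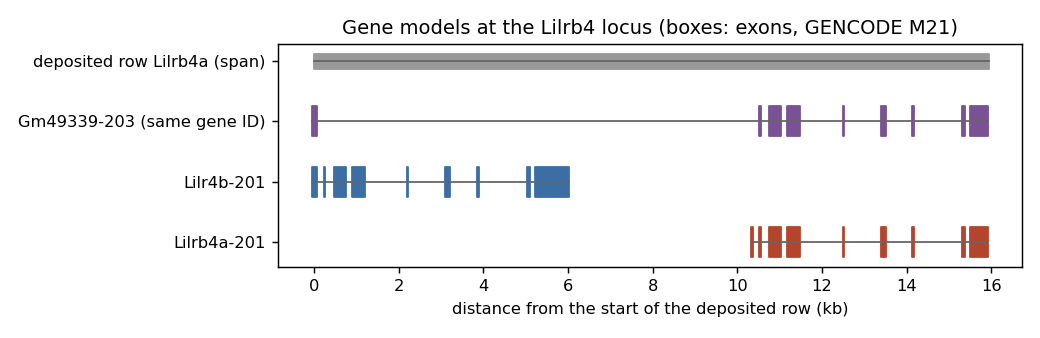
Exons of 3 GENCODE M21 transcripts, as boxes, and the span of the deposited row named Lilrb4a, as a bar, by distance in kb from the start of that row. Of the 9 exons of the Gm49339 transcript, which carries the row's gene identifier, 1 lies at Lilr4b and 8 at Lilrb4a.

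Lilrb4a was the most abundant of these receptors and was higher in every Bach2-cKO library than in any WT library. It stood at 68.4, 75.8 and 75.0 FPKM in Bach2-cKO replicates 1, 2 and 3, against 10.4, 8.71 and 13.0 FPKM in WT replicates 1, 2 and 3. The Bach2-cKO libraries lay close together and the lowest of them was 5.28 times the highest WT library. The means were 73.0 ± 4.04 FPKM in Bach2-cKO and 10.7 ± 2.13 FPKM in WT (SD, n = 3 each), a ratio of 6.83 and a difference of 2.68 on the log2(FPKM + 1) scale (SE 0.13). These values rest on 2541, 3249 and 2792 reads in Bach2-cKO and on 612, 361 and 481 reads in WT, recovered from the FPKM steps. Among the 13766 genes tested, only 4 had a larger rise on that scale. The summed myeloid markers, a sum that a few abundant genes dominate, stood at 1.49 to 2.17 times the WT mean in Bach2-cKO. Of 8 tested, 1 rose and 1 fell, against 7.02% and 8.31% of all genes tested (values by library follow the other results). In sorted bulk cells fewer cells of a type and less RNA per cell cannot be told apart. Within WT the level was above that of 41.0% of the genes tested, and within Bach2-cKO above that of 86.0%.

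Cd300lf, on chromosome 11 from 115116214 to 115133992 on the minus strand, was weakly expressed in WT and higher in Bach2-cKO, but less evenly so. Its level was 24.5, 22.1 and 10.5 FPKM in Bach2-cKO replicates 1, 2 and 3, against 2.996, 1.73 and 3.19 FPKM in WT replicates 1, 2 and 3. The groups did not overlap, and Bach2-cKO replicate 3 was well below the other two Bach2-cKO libraries. The means were 19.01 ± 7.49 FPKM in Bach2-cKO and 2.64 ± 0.792 FPKM in WT (SD, n = 3 each), a ratio of 7.20 and a difference of 2.40 on the log2(FPKM + 1) scale (SE 0.31), which was the 7th largest rise among the genes tested. The lowest Bach2-cKO library was 3.28 times the highest WT library, with 1089, 1132 and 467 reads in Bach2-cKO and 211, 86 and 142 reads in WT. The difference ranged from 2.18 to 2.76 with each library left out in turn.

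The gene body of Cd300lf lies inside Rab37, a RAB GTPase gene on the plus strand of the same chromosome, and no exonic base of Cd300lf falls in a Rab37 exon (0 of 5149). Whether counting used strand is not stated in the labels or the file. Rab37 rose to 37.0 ± 2.96 FPKM in Bach2-cKO, against 26.5 ± 3.17 FPKM in WT (SD, n = 3 each; log2 difference 0.47, SE 0.10, limma adjusted p = 0.0209). Its adjusted p was 0.071 when Bach2-cKO replicate 1 was left out, 0.0792 when WT replicate 1 was and 0.0623 when WT replicate 2 was.

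Pirb, on chromosome 7 from 3711409 to 3720391, was expressed at a low level that overlapped between the groups. It was at 5.70, 5.49 and 4.04 FPKM in Bach2-cKO and at 3.76, 5.39 and 4.501 FPKM in WT replicates 1, 2 and 3. The highest WT library exceeded the lowest Bach2-cKO library. The means were 5.08 ± 0.904 and 4.55 ± 0.819 FPKM in Bach2-cKO and WT (SD, n = 3 each), a log2 difference of 0.13 (SE 0.16). Near-identical Pira genes stand in the same cluster, so reads may be shared among them.

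Cd300a, on chromosome 11 from 114890041 to 114904654, was barely detected. Its level was 0.122, 0.0867 and 0.366 FPKM in Bach2-cKO and 0.274, 0.269 and 0.267 FPKM in WT replicates 1, 2 and 3. The WT values lay between the highest Bach2-cKO library and the others. These values come from 11, 9 and 33 reads in Bach2-cKO and from 39, 27 and 24 reads in WT, and the gene did not pass the filter. A floor of 3 reads in this gene corresponds to between 0.0210 and 0.0333 FPKM, so all 6 values were above it.

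**Figure D2:**
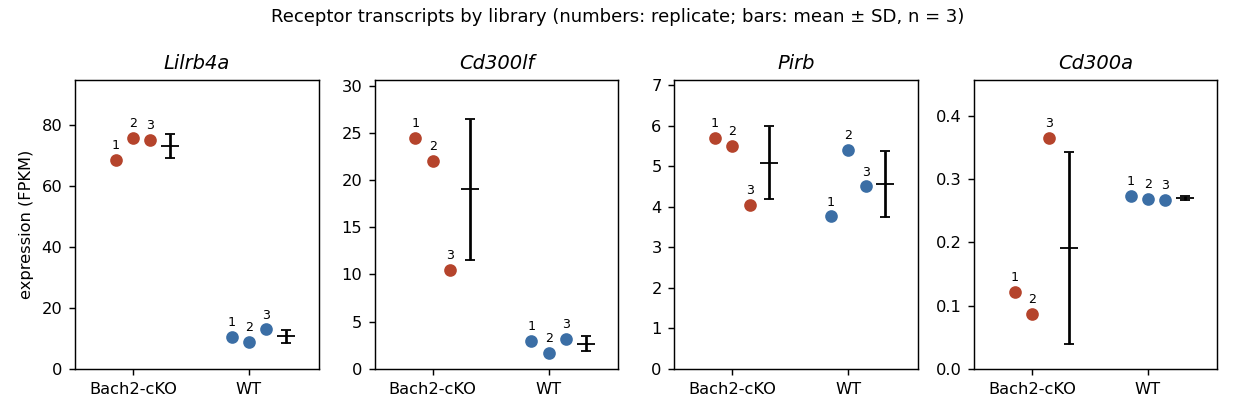
Expression in FPKM (vertical axis, from 0, scaled per gene) of the 4 receptor genes with values, in 3 Bach2-cKO and 3 WT libraries. Points are libraries with their replicate number and bars show the mean ± SD. Lilrb4a and Cd300lf do not overlap between the groups, and Pirb and Cd300a do.

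Of all genes tested, 7.02% were called higher at a limma adjusted p under 0.05, and 15.3% were called in either direction. All Bach2-cKO libraries were above all WT libraries for 15.5% and below them for 20.1%. The choice of Lilrb4a and Cd300lf for their rise in this contrast places these 2 among the higher genes by both counts, so nothing is read from it. The 4 genes together summed to 98.7, 103 and 89.8 FPKM in Bach2-cKO replicates 1, 2 and 3 and to 17.4, 16.1 and 20.9 FPKM in WT replicates 1, 2 and 3. Lilrb4a made up 69.3%, 73.3% and 83.4% of this sum in Bach2-cKO and 59.7%, 54.1% and 61.9% in WT. Per length, Lilrb4a was 2.79, 3.44 and 7.16 times as abundant as Cd300lf in the Bach2-cKO libraries and 3.47, 5.02 and 4.05 times in the WT libraries, ratios that overlap between the groups. Cd300lf exceeded Pirb 4.29-, 4.01- and 2.59-fold in Bach2-cKO, whereas in WT it was at 0.797, 0.321 and 0.710 times the level of Pirb.

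**Figure D3:**
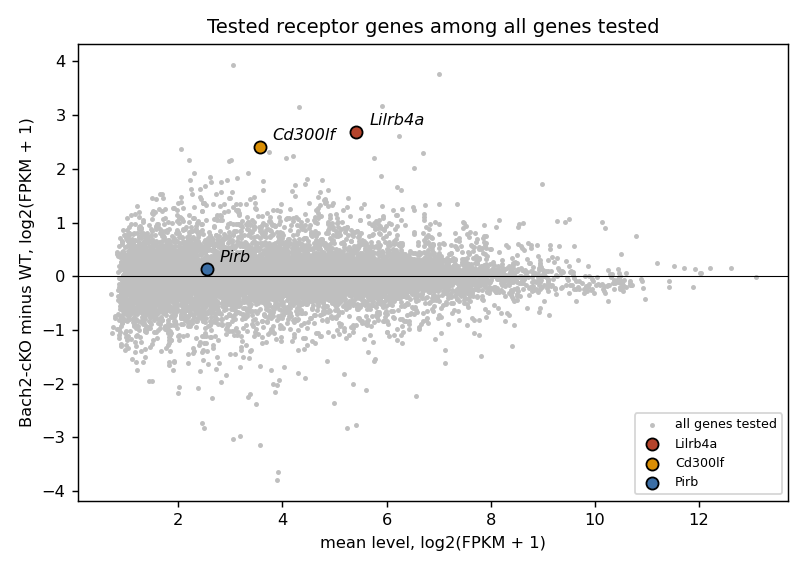
Difference between Bach2-cKO and WT on the log2(FPKM + 1) scale (vertical) against mean level on the same scale (horizontal) for the 13766 genes tested, in grey, with 3 receptor genes marked. Lilrb4a and Cd300lf stand at 2.68 and 2.40, and Pirb at 0.13.

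The rest of the receptor families was nearly silent. The other 10 CD300 genes of the table did not exceed 0.213 FPKM in any library, and 4 of them (Cd300ld2, Cd300ld3, Cd300ld4 and Cd300ld5) were listed at 0 in all 6. The 10 include Cd300lb, an activating member that pairs with DAP12, at a mean of 0.0732 FPKM in Bach2-cKO and 0.0162 FPKM in WT. The other 3 LILR and PIR genes did not exceed 0.525 FPKM. Of these, the activating receptor gene Pira2 averaged 0.306 ± 0.133 FPKM in Bach2-cKO and 0.339 ± 0.102 FPKM in WT, Lilra6 averaged 0.305 ± 0.204 and 0.173 ± 0.104 FPKM in Bach2-cKO and WT (SD, n = 3 each), and Lilra5 was listed at 0.

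Genes beside the receptors were also read, within 250 kb of each. The counts are small, and over all genes tested 7.02% were called higher and 8.31% lower. Around Cd300lf 7 genes were tested, of which Rab37 rose and 0 fell. Slc9a3r1, a scaffold gene 29.3 kb away, was at 117 and 105 FPKM in Bach2-cKO and WT (limma adjusted p = 0.154). Around Cd300a 5 genes were tested, of which Rab37 was called higher and 0 lower. The 5 include Cd300lf, which was chosen for its rise, so nothing is read from its place there. Around Pirb 11 genes were tested: Tmc4, 33.9 kb away, fell to 11.3 FPKM in Bach2-cKO, against 15.8 FPKM in WT (log2 difference -0.45, limma adjusted p = 0.0104), and Gm44160, 236.4 kb away, was higher by 0.99 (limma adjusted p = 0.0227, and 0.0661 to 0.0851 without Bach2-cKO replicate 1 or 2 or WT replicate 1 or 2). The ribosomal protein gene Rps9, 4.5 kb from Pirb, was at 1553 FPKM in Bach2-cKO and 1747 FPKM in WT (limma adjusted p = 0.249). None of the 3 genes of the table within 250 kb of Lilrb4a passed the filter.

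The row with the Gm49339 identifier and that of Cd300lf were higher in Bach2-cKO, and BACH2 binds AP-1-like elements. The 250 bases before the start site of Lilr4b, which is also where Gm49339 begins, and of Cd300lf are therefore shown. They are RefSeq promoters on GRCm38.p6, read 5′ to 3′ along each gene, at chr10:51480362-51480611 on the plus strand and chr11:115133993-115134242 on the minus strand.
Lilr4b: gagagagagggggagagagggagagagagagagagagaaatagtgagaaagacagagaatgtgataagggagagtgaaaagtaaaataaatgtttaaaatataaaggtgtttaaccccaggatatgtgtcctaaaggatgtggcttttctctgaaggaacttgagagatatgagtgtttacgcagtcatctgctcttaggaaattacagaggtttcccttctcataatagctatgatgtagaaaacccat
Cd300lf: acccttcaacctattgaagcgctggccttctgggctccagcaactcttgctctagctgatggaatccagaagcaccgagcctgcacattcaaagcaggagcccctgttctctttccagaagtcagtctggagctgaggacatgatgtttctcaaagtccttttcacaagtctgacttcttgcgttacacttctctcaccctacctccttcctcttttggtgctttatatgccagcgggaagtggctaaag
The letters TGANTCA, the core of an AP-1 or MAF recognition element, were sought on both strands and were not found in these windows, nor in those of Cd300a and Pirb. Of the 32851 promoters of the same length, 6.75% held them. Of the 5 genes, 4 had an entry in the promoter table, and Lilrb4a did not, so the bases before its own start were not searched. Which start site gave the reads of the row named Lilrb4a is not known.

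Of 18 genes for kinases, phosphatases and adaptors that act on ITIMs, all tested, 2 rose, 5 fell and 11 did not pass, with a median log2 difference of 0.09, against a median of -0.017 over all genes tested, of which 7.02% rose and 8.31% fell. Inpp5d, which encodes the lipid phosphatase SHIP-1, rose to 103, 107 and 113 FPKM in Bach2-cKO, against 85.8, 86.5 and 86.8 FPKM in WT replicates 1, 2 and 3 (log2 difference 0.31, SE 0.06, limma adjusted p = 0.0106). Every Bach2-cKO library was above every WT library, as was so for 15.5% of all genes tested. The adaptor gene Grb2 rose by 0.33 (limma adjusted p = 0.0245), a call that held only with all libraries or without Bach2-cKO replicate 3 (0.0553 to 0.0939 without any other library). The SHP-1 gene Ptpn6 was abundant in both groups, at 353 ± 22.1 FPKM in Bach2-cKO and 336 ± 23.0 FPKM in WT (SD, n = 3 each; limma adjusted p = 0.579). The SHP-2 gene Ptpn11 was at 31.5 ± 0.140 and 29.6 ± 0.786 FPKM in Bach2-cKO and WT (limma adjusted p = 0.355).

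Lck and Fyn, the SRC family kinases of T cells, fell. Lck was lower, falling to 304, 283 and 300.8 FPKM in Bach2-cKO, against 368, 372 and 394 FPKM in WT replicates 1, 2 and 3 (log2 difference -0.35, SE 0.06, limma adjusted p = 0.00904). The log2 difference was -0.32 for Fyn, -0.37 for the ubiquitin ligase gene Cblb, -0.39 for the PI3 kinase subunit gene Pik3r1 and -0.32 for the adaptor gene Dok2, with limma adjusted p from 0.0144 to 0.0272. Lyn, the SRC family kinase of B cells and myeloid cells, was at 57.1 FPKM in Bach2-cKO and 44.3 FPKM in WT (limma adjusted p = 0.124). The count of 5 that fell became 1 when WT replicate 1 was left out, 2 when Bach2-cKO replicate 2 was and 3 when Bach2-cKO replicate 1 was. The count of 2 that rose became 1 without Bach2-cKO replicate 1 or 2 or WT replicate 1 or 3. Leaving out 1 library ended the calls of Fyn and Cblb (Bach2-cKO replicate 1 or 2 or WT replicate 1), Pik3r1 (WT replicate 1) and Dok2 (Bach2-cKO replicate 2 or any WT replicate). The calls of Inpp5d and Lck held with each library left out.

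The adaptors of activating receptors did not pass the test. Tyrobp, which encodes DAP12, was at 13.8 ± 1.66 FPKM in Bach2-cKO and 15.5 ± 4.55 FPKM in WT (SD, n = 3 each; limma adjusted p = 0.699). Fcer1g, the FcR gamma chain gene that PIR-A receptors need, was at 24.5 ± 8.11 and 17.4 ± 4.42 FPKM, and the DAP10 gene Hcst at 56.3 ± 6.46 and 62.9 ± 3.74 FPKM, in Bach2-cKO and WT (limma adjusted p = 0.268 and 0.275). Of the 3, 0 had an unadjusted p under 0.05, and limma-voom called 0. Of the 13766 genes tested, the main limma fit called 15.3% in either direction, and 4241 had an unadjusted p under 0.05. Little can be read from 0 of 3.

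Among genes for ligands and partners of these receptors, 4 of 11 tested rose, 0 fell and 7 did not pass, with a median log2 difference of 0.40, where 7.02% of all genes tested rose and 8.31% fell. The integrin that gp49B binds in mice is encoded by Itgav and Itgb3, and both rose. Itgb3 was at 45.9, 42.2 and 43.5 FPKM in Bach2-cKO, against 18.4, 16.1 and 23.6 FPKM in WT replicates 1, 2 and 3 (log2 difference 1.16, SE 0.13, limma adjusted p = 0.00159). Itgav was at 72.9, 70.05 and 79.8 FPKM in Bach2-cKO, against 54.5, 45.4 and 55.3 FPKM in WT (log2 difference 0.52, SE 0.09, limma adjusted p = 0.00997). Neither gene overlapped between the groups. In 8 of the 11 genes tested, all Bach2-cKO libraries were above all WT libraries, against 15.5% of all genes tested. The 8 include Alcam, B2m, H2-D1 and Angptl2, which were not called. Both calls held with each library left out.

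Apoe, whose product binds human LILRB4, rose to 78.2 ± 12.7 FPKM in Bach2-cKO, against 43.0 ± 9.59 FPKM in WT (SD, n = 3 each; limma adjusted p = 0.0172). Leaving out Bach2-cKO replicate 1, Bach2-cKO replicate 2 or WT replicate 1 gave an adjusted p of 0.0568, 0.0633 or 0.0617. Il4ra, the IL-4 receptor chain with which mouse CD300f associates, rose by 0.56 on the log2 scale (limma adjusted p = 0.0130, and 0.054 without WT replicate 1). Of the 4 genes that rose, 2 still did without WT replicate 1. The MHC class I genes whose products PIR-B binds stayed abundant: H2-K1 was at 4248 ± 202 FPKM in Bach2-cKO and 4085 ± 197 FPKM in WT (SD, n = 3 each; limma adjusted p = 0.731), and B2m at 3127 ± 124 and 2732 ± 30.4 FPKM (limma adjusted p = 0.157). Rtn4, which encodes the PIR-B ligand Nogo, was at 83.7 and 85.2 FPKM in Bach2-cKO and WT (limma adjusted p = 0.835). Fn1, which encodes fibronectin, was at 1.13 and 1.05 FPKM (limma adjusted p = 0.853).

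Other receptors that signal through ITIMs or related inhibitory motifs moved both ways. Of 19 tested, 8 rose, 3 fell and 8 did not pass, with a median log2 difference of 0.18, again against 7.02% and 8.31% of all genes tested that rose and fell. Tigit rose to 347, 354 and 453 FPKM in Bach2-cKO, against 197, 153 and 207 FPKM in WT replicates 1, 2 and 3 (log2 difference 1.05, SE 0.14, limma adjusted p = 0.00355). Klrg1, a receptor for cadherins, rose by 0.96 (limma adjusted p = 0.0117). Cd22 and Fcrl5, both receptors of B cells, rose by 1.00 and 1.47 (limma adjusted p = 0.00681 and 0.0113). The calls of these 4 held with each library left out. Those of Cd200r1, Fcgr2b, Sirpa and Cd244, higher by 0.51 to 0.68 with limma adjusted p of 0.0209 to 0.0468, did not hold. That of Cd200r1 was lost without WT replicate 1 or 2, those of Fcgr2b and Sirpa without any library other than Bach2-cKO replicate 3, and that of Cd244, whose row also spans Ly9, without any library. Fcgr2b too is a receptor of B cells, whose summed markers stood at 1.22 to 1.57 times the WT mean in Bach2-cKO. Pecam1, Cd5 and Btla fell, with log2 differences of -0.73, -0.67 and -0.46 (limma adjusted p = 0.00184, 0.00932 and 0.00199), and these calls held with each library left out. The 8 that rose became 5 without Bach2-cKO replicate 1, Bach2-cKO replicate 2 or WT replicate 3 and 4 without WT replicate 1 or WT replicate 2.

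**Figure D4:**
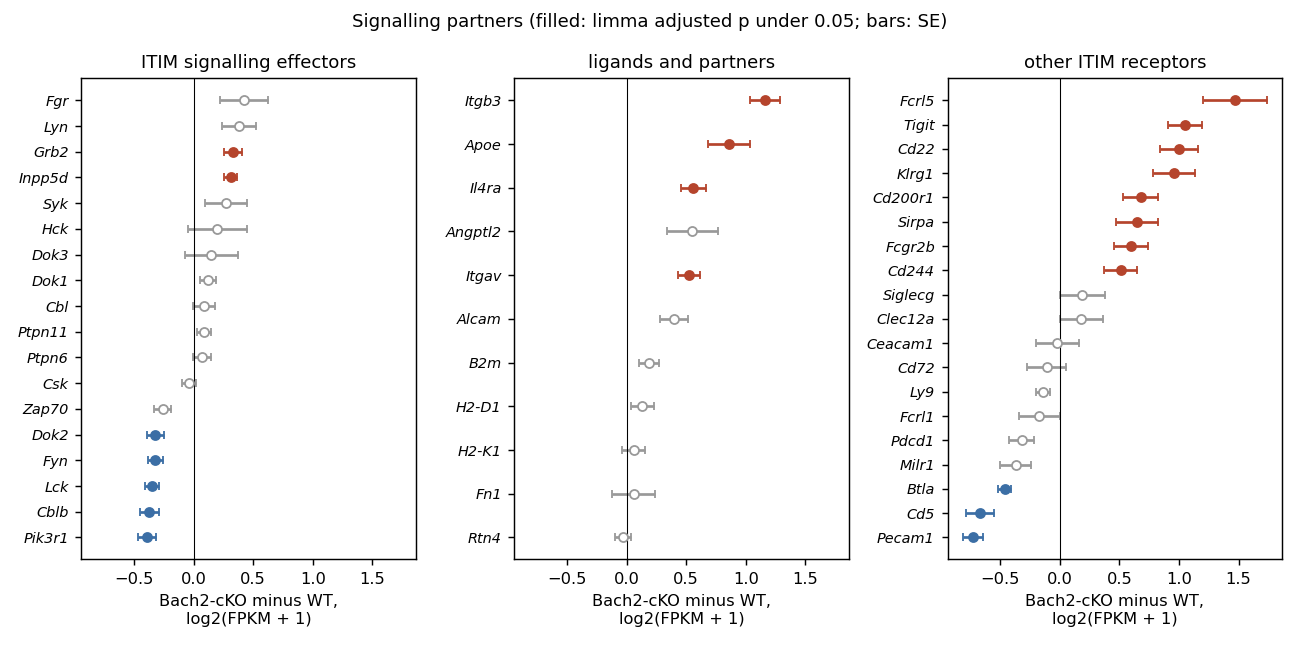
Difference between Bach2-cKO and WT on the log2(FPKM + 1) scale (horizontal) for the tested genes of 3 lists. Bars are SE, and filled points passed limma at an adjusted p under 0.05. Itgb3 stands at 1.16, Inpp5d at 0.31, Lck at -0.35 and Tigit at 1.05.

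The genes whose profile over the 6 libraries was most like that of Lilrb4a were found by the root-mean-square distance between centred log2(FPKM + 1) values, among 9450 genes averaging 5 FPKM or more, provisional names left out. The likeness is a description over 6 libraries that fall into both groups. Il1rl1, the IL-33 receptor gene, was nearest at a distance of 0.280, with 95.4, 91.2 and 77.1 FPKM in Bach2-cKO and 19.9, 14.3 and 21.8 FPKM in WT replicates 1, 2 and 3. It was followed by Tnfrsf8 (CD30), Ighv2-9, Ttc39c and Nradd at distances of 0.367 to 0.407. Nearest to Cd300lf was Epas1, which encodes the hypoxia-inducible factor HIF-2 alpha, at a distance of 0.187, with 15.1, 14.3 and 7.17 FPKM in Bach2-cKO and 2.46, 1.37 and 1.74 FPKM in WT replicates 1, 2 and 3. Like Cd300lf, Epas1 was lower in Bach2-cKO replicate 3 than in the other Bach2-cKO libraries, which its choice by likeness to Cd300lf favours. Tnfrsf8, Il1rl1, Ccl3 and Havcr2 (TIM-3) came next at 0.194 to 0.380, so Il1rl1 and Tnfrsf8 stand in both sets of 5.

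Recovered read totals ran from 27703735 to 31976067 in Bach2-cKO and from 27697735 to 43884431 in WT. Bach2 itself was at 88.9 to 121 FPKM in the libraries labelled Bach2-cKO and at 99.4 to 112 FPKM in WT. A value per gene does not show a deletion of some exons, and the labels do not name the deleted part, so each direction rests on the labels. Markers of T cells and Tregs (Cd3e, Cd4, Foxp3 and 5 others) were abundant, summing to 2195 to 2553 FPKM in Bach2-cKO and 2088 to 2459 FPKM in WT. Of these 8, 1 rose (Il2ra), 2 fell (Cd3d and Cd3g) and 5 did not pass, where 7.02% of all genes tested rose and 8.31% fell. The call of Il2ra held with each library left out, and those of Cd3d and Cd3g were lost without Bach2-cKO replicate 1 or 2 or WT replicate 2 or 3, and that of Cd3g also without WT replicate 1.

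Markers of other cells that carry these receptors were also measured. The 17 rows for myeloid markers summed to 85.5, 125 and 112 FPKM in Bach2-cKO replicates 1, 2 and 3 and to 57.4, 55.7 and 59.2 FPKM in WT. Of the 8 tested, 1 rose (Mpeg1, also expressed by B cells) and 1 fell (Flt3), against 7.02% and 8.31% of all genes tested. The call of Mpeg1 was lost without Bach2-cKO replicate 1 or 2 or WT replicate 2 or 3, and that of Flt3 without any library other than Bach2-cKO replicate 1. None was at 0 in all libraries, but 8 rows, Csf1r, Itgam, Cd14 and Fcgr1 among them, were below 1 FPKM in every library. The highest of these values, 0.591 FPKM, was that of Csf3r, the G-CSF receptor gene of neutrophils, which was at 0.175, 0.591 and 0.488 FPKM in Bach2-cKO and 0.0221, 0.0313 and 0.0524 FPKM in WT replicates 1, 2 and 3. Adgre1, which encodes the macrophage antigen F4/80 and did not pass the filter, and the dendritic cell gene Xcr1 (limma adjusted p = 0.0512) averaged 1.11 and 1.59 FPKM in Bach2-cKO and 0.466 and 0.724 FPKM in WT. Like Csf3r, neither overlapped between the groups. Nor did Mpeg1 or the more abundant Itgam row (0.470 to 0.528 FPKM in Bach2-cKO, 0.273 to 0.377 FPKM in WT), while Flt3 lay below. The other myeloid rows overlapped. Over all genes tested, all Bach2-cKO libraries were above all WT libraries for 15.5% and below them for 20.1%. Csf3r, Adgre1 and Itgam did not pass the filter behind these shares. The neutrophil genes S100a8 and S100a9 were at 3.08 and 2.73 FPKM in Bach2-cKO replicate 1, no higher than in any WT library. In Bach2-cKO replicates 2 and 3, S100a8 was at 17.5 and 27.7 FPKM, against 3.94 to 5.14 FPKM in WT. The 6 mast cell and basophil markers summed to 23.8 to 35.9 FPKM in Bach2-cKO and 19.1 to 25.9 FPKM in WT, with Kit at 27.4 and 21.6 FPKM on average and 4 of the 6 at no more than 0.464 FPKM in any library. Of the 2 tested, 0 were called, and 0 had an unadjusted p under 0.05. With 15.3% of the 13766 genes tested called in either direction and 4241 at an unadjusted p under 0.05, 0 of 2 says little.

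The sort for B220-negative, CD4-positive cells should remove B cells and CD8 T cells. The 9 B cell markers summed to 1356 to 1746 FPKM in Bach2-cKO and 961 to 1374 FPKM in WT. All 9 were tested: 3 rose, Pax5 and Ms4a1 among them, 0 fell and 6 did not pass. Over all genes tested, 7.02% rose and 8.31% fell. The 5 plasma cell markers summed to 168 to 246 FPKM in Bach2-cKO and 89.7 to 103 FPKM in WT. Of 4 tested, 3 rose (Mzb1, Jchain and Derl3), where 7.02% of all genes tested rose. The call of Ms4a1 was lost without Bach2-cKO replicate 2 or WT replicate 1 or 3, and that of Derl3 without any library other than Bach2-cKO replicate 3. Cd8a and Cd8b1 summed to 99.3, 80.0 and 53.8 FPKM in Bach2-cKO replicates 1, 2 and 3, the same order as Cd300lf, and to 40.2 to 44.2 FPKM in WT. Both were called higher, where 7.02% of all genes tested were. These calls were lost without Bach2-cKO replicate 2 or any WT replicate, and that of Cd8a also without Bach2-cKO replicate 1. As multiples of the WT mean, the Bach2-cKO libraries stood at 1.49 to 2.17 for the myeloid sum, 1.22 to 1.57 for B cells, 1.72 to 2.52 for plasma cells and 1.29 to 2.37 for CD8 T cells, against 6.40 to 7.09 for Lilrb4a and 3.97 to 9.27 for Cd300lf. Most of the myeloid sum is Mpeg1, Cd68, S100a8 and S100a9. It shows little of the low markers, of which Csf3r and Adgre1 differed more than the sum, and Csf1r and Cd14 did not rise. The NK cell markers summed to 13.1 to 17.5 FPKM in Bach2-cKO and 11.8 to 21.1 FPKM in WT, with Klra9 at 0, and Tyrobp, the 1 gene of that list tested, did not pass. Most of that sum is Tyrobp, which myeloid cells also express. Ncr1, which encodes the NK cell receptor NKp46 and did not pass the filter, was at 0.976, 0.888 and 1.24 FPKM in Bach2-cKO and 0.416, 0.416 and 0.146 FPKM in WT replicates 1, 2 and 3, with no overlap. Among the genes that passed the filter, 15.5% had all Bach2-cKO libraries above all WT libraries. The part of these cells in the receptor values was not tested.

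**Figure D5:**
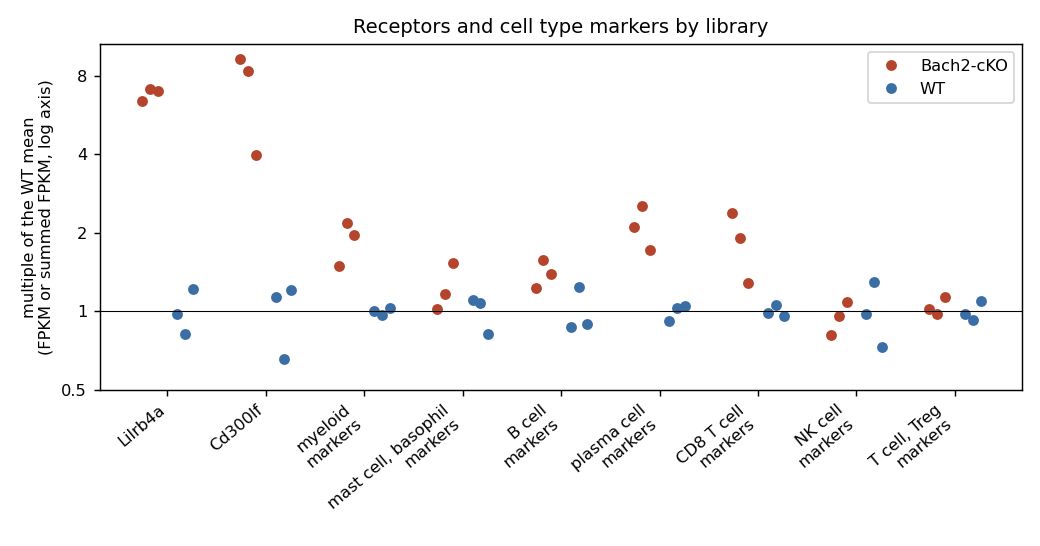
Lilrb4a, Cd300lf and the summed FPKM of 7 marker lists in each library, as multiples of the WT mean (log axis). Points are libraries, 3 per group. In Bach2-cKO, Lilrb4a stands at 6.40 to 7.09, the plasma cell sum at 1.72 to 2.52 and the myeloid sum at 1.49 to 2.17.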

How the data were processed

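The authors deposited FPKM per gene and library. The tools listed are featureCounts 1.5.0-p3 and HISAT2 2.0.5, and the build listed is mm9, per the submitters' processing notes. Gene positions equal those of GENCODE M21 (GRCm38) for 91.5% of shared identifiers, so positions are given as GRCm38. Whole reads were recovered from the steps of the FPKM values (tolerance 0.001 reads, for all 28530 genes above 0) and served for depth and 1 alternative test. Depth allows a floor of 3 reads, counting error only.

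The filter asked for 1 FPKM or more in 3 or more libraries. Differences on the log2(FPKM + 1) scale (pseudocount 1) were fitted by limma 3.58.1 (intensity trend, two-sided, no covariate) in R 4.3.3, Benjamini-Hochberg adjusted over all 13766 genes, threshold 0.05. The scale understates changes of low genes. The fit was tested on simulated reads. Members and lists were chosen with earlier results of these data known. Named genes are the members, called list genes, tested neighbours within 250 kb and the 5 nearest profiles, and any other list gene or marker was named after its values were seen. Alternatives covered the pseudocount, scaling, filters, limma-voom, a replicate block and leaving out each library. Figures used Matplotlib 3.10.9 under Python 3.11.15. The value of 1 marker gene is not reported here.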

Additional observations from a re-analysis of the deposited data

How the results depend on the processing

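The log2 differences of Lilrb4a, Cd300lf and Pirb stayed within 1 SD of the replicates under the alternatives that could move them. With each library left out they were 2.55 to 2.81, 2.18 to 2.76 and 0.02 to 0.26. The filters and the replicate block could not change them. Lilrb4a and Cd300lf were chosen for their rise, so this supports nothing about it. The log2 difference of Cd300a was -0.1, with -0.2 to -0.04 over the omissions, and -0.46 with a pseudocount of 0.1. It was not fitted by limma-voom, since it did not pass the filter. Without any filter on low values, 501 genes were higher and 681 lower, against 967 and 1144. ITIM effectors then had 1 higher and 3 lower, ligands and partners 2 higher and other ITIM receptors 2 higher. With the replicate number as a block, 625 genes were higher and 657 lower, 1 effector was higher and 5 other ITIM receptors were higher. Same-numbered libraries did not deviate together (correlations of -0.0526, 0.00578 and -0.215 for numbers 1, 2 and 3). These values give no sign of pairing by number but cannot exclude it. With each library left out, 492 to 1224 genes were higher and 560 to 1375 lower. Over the same omissions, 1 to 2 effectors were higher and 1 to 5 lower, 2 to 6 ligands and partners were higher, and 4 to 7 other ITIM receptors were higher and 3 to 4 lower. On the recovered whole reads, limma-voom called 1166 genes higher and 1348 lower. Median-ratio scaling shifted the median gene by 0.0243 on the log2 scale. The omissions leave fewer samples, and the highest counts among them, 1224 higher and 1375 lower, came without Bach2-cKO replicate 3. The cause of these changes was not tested. Depth limits Cd300a, at 9 to 39 reads per library.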
